A study of Mus musculus with 6 samples.

Results

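Lysosomal hydrolases and the membrane proteins around them were followed here as 38 genes: 10 cathepsins, 2 further proteases, 6 glycosidases, 6 sulfatase and lipid hydrolase genes with their activators, 6 membrane proteins, the cholesterol carrier Npc2, the transcription factor Tfeb and 6 subunits of the proton pump. A gene was taken as measured when a probe set of the array was annotated with its symbol and no other, and the probe set with the highest mean was used where there were several. By this rule 36 of the 38 genes were measured, of 30184 genes with such a probe set in all. Ctsd and Glb1 were not, because their probe sets also carry the symbol of a second gene.

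The RNA came from bone marrow-derived macrophages (BMDMs) of adult C57BL/6J mice, grown for 5 days in 20 ng/ml M-CSF, the macrophage growth factor. Both groups then received recombinant GAS6 (rGAS6), a ligand of the efferocytosis receptor MerTK, and were subjected to hypoxia/reoxygenation (HR), which models ischemia and reperfusion in culture, with harvest 24 h later. The 3 WT_rGAS6 samples came from Cre-negative littermates carrying the floxed Atf3 allele, and the 3 ATF3-CKO_rGAS6 samples from Atf3 flox/flox mice with Lyz2-Cre, which is active across the myeloid lineage. Presence of the Cre and loss of the transcription factor ATF3 therefore cannot be told apart, and no sample lacked rGAS6 or HR. Each value is a log2 signal of 1 probe set on 1 of 6 arrays, and signals of different probe sets are not comparable as amounts of RNA.

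The targeted gene went against its label. Atf3 read 8.38 to 8.56 in WT and 9.20 to 9.26 under the ATF3-CKO label, 0.77 higher on the log2 scale (SE 0.08, adjusted p = 0.00538). The sources used here do not say which exons are floxed, so its single probe set may lie outside them and would then not show the deletion. Why Atf3 read higher was not tested. All directions below are those of the arrays labelled ATF3-CKO relative to WT and rest on these labels. Macrophage markers, 9 of 10 listed being measured, had a summed log2 signal of 19.8 to 20.1 in WT. Under the ATF3-CKO label it was 20.2 to 20.3. The sum is carried by Lyz2, the gene that the Cre line is named after, and by Cd68, which is itself a member. Lyz2 read 18.73 to 19.14 in WT and 19.35 to 19.51 under the ATF3-CKO label, so the groups were apart. Its difference was 0.49 (SE 0.12, adjusted p = 0.0817). Whether the Cre itself alters the Lyz2 signal was not tested. Without Lyz2 the sum was 18.9 to 19.2 in WT and 19.0 to 19.1 under the ATF3-CKO label, which overlapped. Of the 9, Mertk (2.57-fold, adjusted p = 0.0499) was higher and only just past the threshold, and Cd14 (2.11-fold, adjusted p = 0.0225) was higher too. Itgam, the integrin CD11b, was 12.3-fold lower, with group means of 14.93 and 11.31 (adjusted p = 1.28e-04). Adgre1 was 1.70-fold lower but overlapped (adjusted p = 0.263). Aif1 and Fcgr1 were dimmer, with group means of 5.31 to 6.99. The summed signal of neutrophil markers was lower, at 16.8 to 17.5 against 11.9 to 13.9 over 15 of 15 listed genes, 6 of them lower past the threshold. Of the rest, Csf3r (0.76) and Mmp8 (0.61) had positive differences with the groups apart, and Mpo, Elane and Ctsg, which define their precursors, had group means of 3.45 to 3.84, near the 2.74 of the background control probe sets. That of monocyte markers was lower too, at 14.0 to 14.2 against 9.99 to 11.7 over 6 of 8 listed genes, with Ly6c2 as the single gene past the threshold and Ccr2 and Plac8 below 4.32, the median of all probe sets. Without Ly6c2 it was 9.64 to 10.2 against 9.09 to 10.8, which overlapped. Fibroblast markers summed to 8.15 to 8.67 against 8.51 to 9.94, with 0 of 7 past the threshold in limma and 3 at an unadjusted p under 0.05. Neutrophils and monocytes also hold lysosomal enzymes, and the part of these cells in the results below was not tested. In bulk RNA, fewer cells of a type and less RNA per cell cannot be told apart.

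Lysosomes break down proteins, glycans and lipids with acid hydrolases. These enzymes are made in the endoplasmic reticulum, tagged with mannose 6-phosphate in the Golgi and carried to an organelle whose interior the vacuolar proton pump keeps acidic. Macrophages that clear dead cells depend on this system, and TFEB, a basic helix-loop-helix transcription factor, drives many of its genes through the CLEAR element in their promoters. TFEB is controlled largely by phosphorylation at the lysosome surface, which an array does not read. ATF3 is a bZIP factor known to bind CRE and AP-1 motifs.

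Promoter sequence is shown first, because TFEB is itself a member. Its motif is known from promoters of lysosomal genes, and the members were chosen as lysosomal genes. A share of the motif above that of all genes is therefore no evidence independent of this choice. Windows from 250 bases before to 50 bases after the start site were taken from RefSeq (GRCm38.p6) and were found for 32 of the 38 members. The 8-base core of the CLEAR element, TCACGTGA, stood in 6 of these 32 windows (18.8%), against 1.12% of 27025 mouse genes. The members that hold it are Ctsa and Ctsd, Gla, Mcoln1, Atp6v1a and Atp6v0d1, so cathepsins, a glycosidase, a membrane channel and pump subunits of both pump sectors are among them. One stretch of 48 bases from each is printed 5′ to 3′ with the first core of the window in capitals.
Ctsa (chr2:164833740-164833787, plus strand): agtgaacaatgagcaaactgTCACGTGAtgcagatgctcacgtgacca
Ctsd (chr7:142387899-142387946, minus strand): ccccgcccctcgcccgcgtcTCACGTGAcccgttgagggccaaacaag
Gla (chrX:134601206-134601253, minus strand): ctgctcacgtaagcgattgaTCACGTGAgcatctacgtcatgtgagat
Mcoln1 (chr8:3500453-3500500, plus strand): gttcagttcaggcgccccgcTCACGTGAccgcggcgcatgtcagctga
Atp6v1a (chr16:44139364-44139411, minus strand): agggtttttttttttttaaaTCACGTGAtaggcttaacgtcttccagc
Atp6v0d1 (chr8:105566041-105566088, minus strand): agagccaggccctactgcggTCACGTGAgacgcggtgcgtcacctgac
These first cores differ in where they stand, from base -228 in Gla to base -4 in Atp6v0d1, counted from the start site. Gla holds a second core at base -195, outside the stretch shown, and Ctsa one at base 5, after the start site, which stands in lower case near the end of its stretch. The shorter E-box CACGTG, which lies inside the CLEAR core, was in 13 of 32 windows (40.6%) against 8.09% of all genes. Lamp1 alone among the members held 4 of them, all between base -61 and base -15. The CRE motif TGACGTCA was in 1 window, that of Gusb (3.13% of members, 2.03% of all genes), and the AP-1 motif TGANTCA in 4, those of Atp6v0a1, Cd68, Glb1 and Psap (12.5% against 8.97%). All 4 motifs were searched on both strands. A match is a description of the letters and no evidence of binding, and a window without a match says only that these letters are not in it.

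The promoters of the 3 members that passed the test are given whole, since they carry the differences described next. The window of Ctsl holds 1 E-box, in capitals, and those of Ctsc and Arsb hold none of the 4 motifs.
Ctsc (chr7:88277835-88278134, plus strand): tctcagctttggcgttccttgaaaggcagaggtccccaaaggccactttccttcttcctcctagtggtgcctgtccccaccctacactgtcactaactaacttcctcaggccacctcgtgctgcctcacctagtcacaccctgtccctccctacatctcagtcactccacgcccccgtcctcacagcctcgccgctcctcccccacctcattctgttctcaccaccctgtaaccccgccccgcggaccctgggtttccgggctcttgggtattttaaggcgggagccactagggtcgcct
Ctsl (chr13:64370471-64370770, minus strand): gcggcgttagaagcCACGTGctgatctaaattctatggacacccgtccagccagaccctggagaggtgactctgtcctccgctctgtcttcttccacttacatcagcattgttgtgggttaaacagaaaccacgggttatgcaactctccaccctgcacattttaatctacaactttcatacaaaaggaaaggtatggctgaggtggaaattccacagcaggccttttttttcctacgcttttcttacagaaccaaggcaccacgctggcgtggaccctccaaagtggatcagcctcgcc
Arsb (chr13:93771429-93771728, plus strand): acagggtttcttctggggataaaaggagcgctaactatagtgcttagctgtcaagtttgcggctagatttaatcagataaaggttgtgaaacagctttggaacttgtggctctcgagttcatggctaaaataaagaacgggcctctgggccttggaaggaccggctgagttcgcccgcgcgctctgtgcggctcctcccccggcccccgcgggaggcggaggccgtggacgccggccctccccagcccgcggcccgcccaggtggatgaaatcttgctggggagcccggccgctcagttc

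Of the 36 measured members, 3 passed an adjusted p of 0.05: Ctsc was higher, and Ctsl and Arsb were lower, on the arrays labelled ATF3-CKO. Cathepsin C is a dipeptidyl peptidase that activates serine proteases of granules, cathepsin L is an endopeptidase of the papain family, and arylsulfatase B removes sulfate from dermatan and chondroitin sulfate. These 3 members also changed by 2-fold or more, and no other member did. Over all 65956 probe sets 2.85% passed the threshold in either direction, 1.17% higher and 1.68% lower. At 2-fold, 1.18% of probe sets were higher and 0.838% lower. The share with an unadjusted p under 0.05 was 11.6% in the higher and 6.2% in the lower direction, and among probe sets with 1 symbol above the median signal 13.7% and 14.5%. All 36 members lay above the median signal, where calls are more frequent, and among probe sets with 1 symbol above that median 6.5% passed. The members' 3 of 36 (8.33%) is near that share, and nothing is read from it about lysosomal genes as a group.

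Ctsc read 10.94, 11.45 and 10.68 in WT and 12.93, 12.39 and 12.54 under the ATF3-CKO label. The groups lay apart, with the highest WT array still 0.94 below the lowest array of the other group. The difference was 1.60 (SE 0.22, 95% interval 1.08 to 2.11), a 3.03-fold higher signal with an adjusted p of 0.0144. The call was lost when WT replicate 1 (difference 1.56, adjusted p = 0.0651) or ATF3-CKO replicate 3 (1.64, adjusted p = 0.0705) was left out. Ctsc is also strongly expressed by neutrophils. Of the 15 neutrophil markers 11 were negative and 4 positive, with 6 lower and 0 higher past the threshold. The part of neutrophils in the result for Ctsc was not tested.

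Ctsl read 18.69, 18.57 and 18.59 in WT and 17.18, 17.43 and 17.08 under the ATF3-CKO label. All 3 WT arrays lay within 0.12 of each other and more than 1 unit above the other group. The difference was -1.38 (SE 0.11, 95% interval -1.64 to -1.13), a 2.61-fold lower signal with an adjusted p of 0.00168. Arsb was the member with the smallest p. It read 8.94, 8.84 and 8.85 in WT and 7.15, 7.36 and 7.17 under the ATF3-CKO label. The difference was -1.65 (SE 0.09, 95% interval -1.86 to -1.44), a 3.15-fold lower signal with an adjusted p of 3.5e-04. A second, dim probe set of Arsb read 3.19 ± 0.17 in WT and 3.21 ± 0.09 under the ATF3-CKO label (SD, n = 3), close to the background controls, and showed no difference (0.02, 95% interval -0.24 to 0.27). Both calls held under each of the 14 alternatives computed, with 1 array left out or another scaling, filter or variance model.

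**Figure D1:**
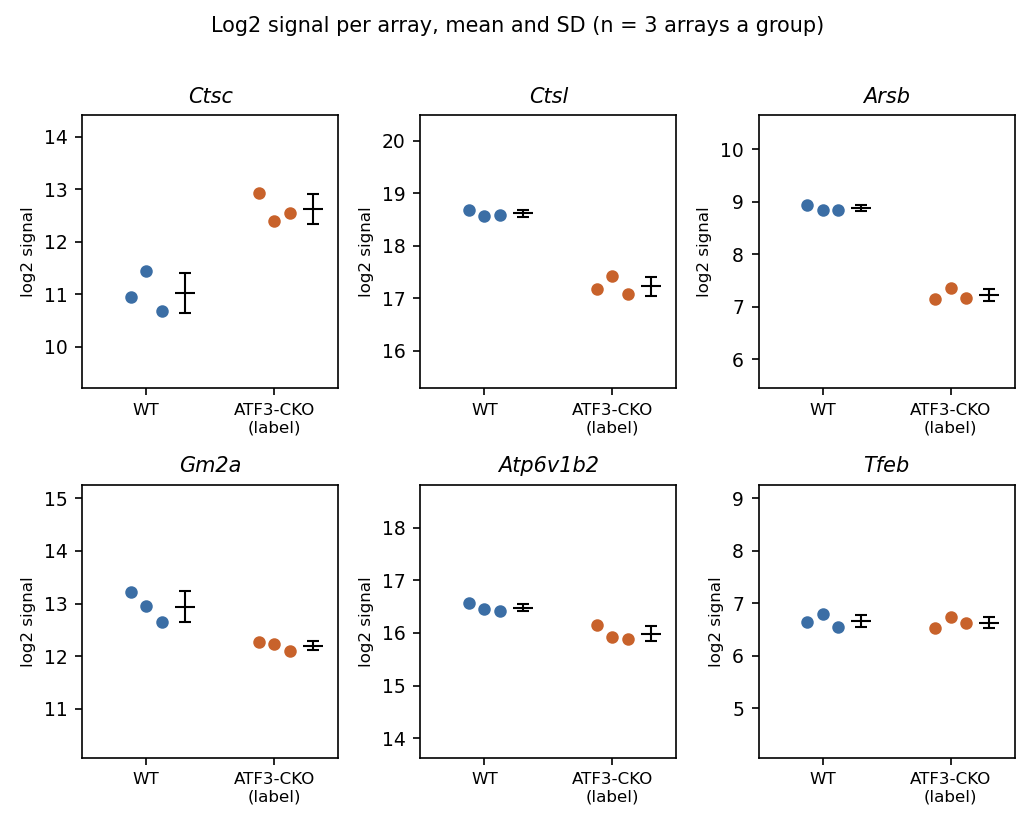
Log2 signal (y axis, the same span in each panel) of 6 members on the 3 WT arrays and the 3 arrays labelled ATF3-CKO, each point 1 array, with the mean and SD of the 3 beside them. The groups lie apart in Ctsc, Ctsl, Arsb, Gm2a and Atp6v1b2 and overlap in Tfeb.

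Tfeb itself showed little difference. It read 6.65, 6.79 and 6.55 in WT and 6.53, 6.74 and 6.62 under the ATF3-CKO label, so the arrays of the groups interleaved. The difference was -0.03 (95% interval -0.27 to 0.20, adjusted p = 0.895), an interval that leaves out a change of 1.5-fold either way. The 5 measured members with a CLEAR core had a median difference of -0.02, between -0.28 for Atp6v1a and 0.42 for Mcoln1, and none passed the test. The 25 measured members with a promoter window and no CLEAR core had a median of -0.10 and included the 3 that passed.

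Of the 9 measured cathepsins, 7 had a negative difference, but Ctsl and Ctsc alone passed. The median difference of the 9 was -0.17, against 0.06 over all probe sets and 0.02 over probe sets with 1 symbol above the median signal. Cathepsin S, a protease of endosomes that trims the invariant chain of MHC class II, came next. Ctss read 18.66, 18.68 and 18.84 in WT and 18.48, 18.39 and 18.36 under the ATF3-CKO label, apart but close, with a difference of -0.32 (adjusted p = 0.11). Ctsf, a less studied papain-type protease, was also apart, at 6.18 to 6.51 against 5.98 to 6.10 (difference -0.25, adjusted p = 0.294). Cathepsin B, the brightest member probe set, read 19.76, 19.74 and 19.65 in WT and 19.72, 19.52 and 19.65 under the ATF3-CKO label. These overlapped, and the interval of the difference, -0.29 to 0.12, was narrow. The highest value of the table was 19.93, and whether such bright probe sets still respond in proportion was not tested. The aminopeptidase Ctsh (-0.18), Ctso (-0.15), the carboxypeptidase Ctsz (-0.17) and the protective protein Ctsa (0.03) overlapped between groups, as did the asparaginyl endopeptidase Lgmn (-0.12) and the tripeptidyl peptidase Tpp1 (-0.18). With WT replicate 2 left out the cathepsin median was -0.07, and with ATF3-CKO replicate 1 left out it was -0.27.

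No glycosidase passed the test in limma, and 2 higher and 1 lower reached an unadjusted p under 0.05. Gusb, the beta-glucuronidase, read 13.31, 13.57 and 13.29 in WT and 12.94, 12.95 and 12.90 under the ATF3-CKO label. The groups were apart and the difference was -0.46 (95% interval -0.69 to -0.23), just short of the threshold (adjusted p = 0.0589). Gaa, the acid alpha-glucosidase that degrades glycogen, had the opposite sign, at 11.54, 11.72 and 11.22 in WT and 11.95, 12.02 and 11.96 under the ATF3-CKO label (difference 0.48, adjusted p = 0.113). Hexa, the alpha subunit of beta-hexosaminidase, was likewise apart, at 15.46 to 15.99 against 16.06 to 16.10, with a difference of 0.33 (adjusted p = 0.271). Gla, the alpha-galactosidase, read 17.07 to 17.17 in WT and 16.68 to 17.10 under the ATF3-CKO label (difference -0.26, adjusted p = 0.311). Naglu, which acts on heparan sulfate, had its WT arrays spread from 8.85 to 9.74 and the other 3 between 9.29 and 9.33, within the WT range. The median difference of the 5 was -0.06, and it was 0.12 without WT replicate 2 and -0.24 without WT replicate 3.

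Arsb belongs to the enzymes of sulfated glycans and lipids, and the other members of that group stayed short of the threshold. Gm2a encodes the activator that presents GM2 ganglioside to beta-hexosaminidase. It read 13.22, 12.96 and 12.64 in WT and 12.27, 12.23 and 12.10 under the ATF3-CKO label, apart, with a difference of -0.74 (95% interval -1.09 to -0.39, adjusted p = 0.0518). Gm2a passed in 5 of the 14 alternatives, among them the fit without WT replicate 3, its lowest WT array. Smpd1, the acid sphingomyelinase, overlapped (difference -0.36, adjusted p = 0.243). Psap, the precursor of the saposins, read 19.16, 19.18 and 19.07 in WT and 19.15, 19.06 and 19.12 under the ATF3-CKO label, which overlapped (-0.02, 95% interval -0.20 to 0.15). The acid ceramidase Asah1 (-0.09) and the palmitoyl-protein thioesterase Ppt1 (0.35, WT 10.20 to 10.70, other arrays 10.41 to 11.14) overlapped as well. The median of the 6 was -0.22.

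Membrane proteins spanned the narrowest range of the 4 main role groups (cathepsins, glycosidases, membrane proteins and pump subunits). Their 6 differences lay between -0.10 and 0.42 with a median of 0.04. None passed in limma, and 1 was higher at an unadjusted p under 0.05. Mcoln1, the calcium channel mucolipin 1, had the smallest p of the group and read 10.01, 9.85 and 9.47 in WT and 10.33, 10.14 and 10.13 under the ATF3-CKO label (difference 0.42, adjusted p = 0.194). Lamp1, the most abundant lysosomal glycoprotein together with Lamp2, was also apart, at 18.08 to 18.23 against 18.25 to 18.45 (difference 0.20, adjusted p = 0.309). Lamp2 (-0.10), the tetraspanin Cd63 (-0.05) and the sterol transporter Npc1 (0.05) overlapped. Cd68, the macrophage scavenger receptor of this membrane, read 18.97, 18.88 and 18.74 in WT and 18.88, 18.84 and 18.96 under the ATF3-CKO label. The difference of 0.03 (95% interval -0.18 to 0.24) became -0.16 after quantile normalization. Npc2, which hands cholesterol to Npc1 from the lumen, overlapped with a difference of -0.26 (adjusted p = 0.298).

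Of the subunits of the vacuolar proton pump none passed in limma. Of the 6, 1 was higher and 3 were lower at an unadjusted p under 0.05. Among probe sets with 1 symbol above the median signal, as all 6 are, these shares were 13.7% and 14.5%. Over all probe sets they were 11.6% and 6.2%. The catalytic V1 sector sits on the cytosolic face and hydrolyses ATP, and the V0 sector carries protons through the membrane. Atp6v1b2, the B subunit of V1, had the smallest p and read 16.56, 16.47 and 16.42 in WT and 16.16, 15.92 and 15.88 under the ATF3-CKO label. The groups were apart and the difference was -0.49 (95% interval -0.73 to -0.26, adjusted p = 0.0536), past the threshold in 5 of the 14 alternatives. Atp6v1h, the regulatory H subunit, read 14.27, 14.18 and 14.91 in WT and 13.66, 13.79 and 13.68 under the ATF3-CKO label, with WT replicate 3 far above the rest (difference -0.74, adjusted p = 0.0934). Without that replicate it passed, with a smaller difference of -0.51. Atp6v1a, the catalytic A subunit, was apart with a difference of -0.28 (adjusted p = 0.216). In V0, the a1 subunit gene Atp6v0a1 read 13.21, 13.62 and 12.85 in WT and 13.88, 13.74 and 13.79 under the ATF3-CKO label (difference 0.58, adjusted p = 0.159), and it passed without WT replicate 2. Atp6v0d1 (-0.02) and the accessory subunit Atp6ap1 (0.02) overlapped. The 3 V1 subunits among the members were thus all negative and apart. Of the 3 others, Atp6v0a1 was apart with a positive difference, and Atp6v0d1 and Atp6ap1 overlapped. This split was noticed after the values were seen and was not tested. The median of the 6 was -0.15, and it was -0.30 after quantile normalization.

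**Figure D2:**
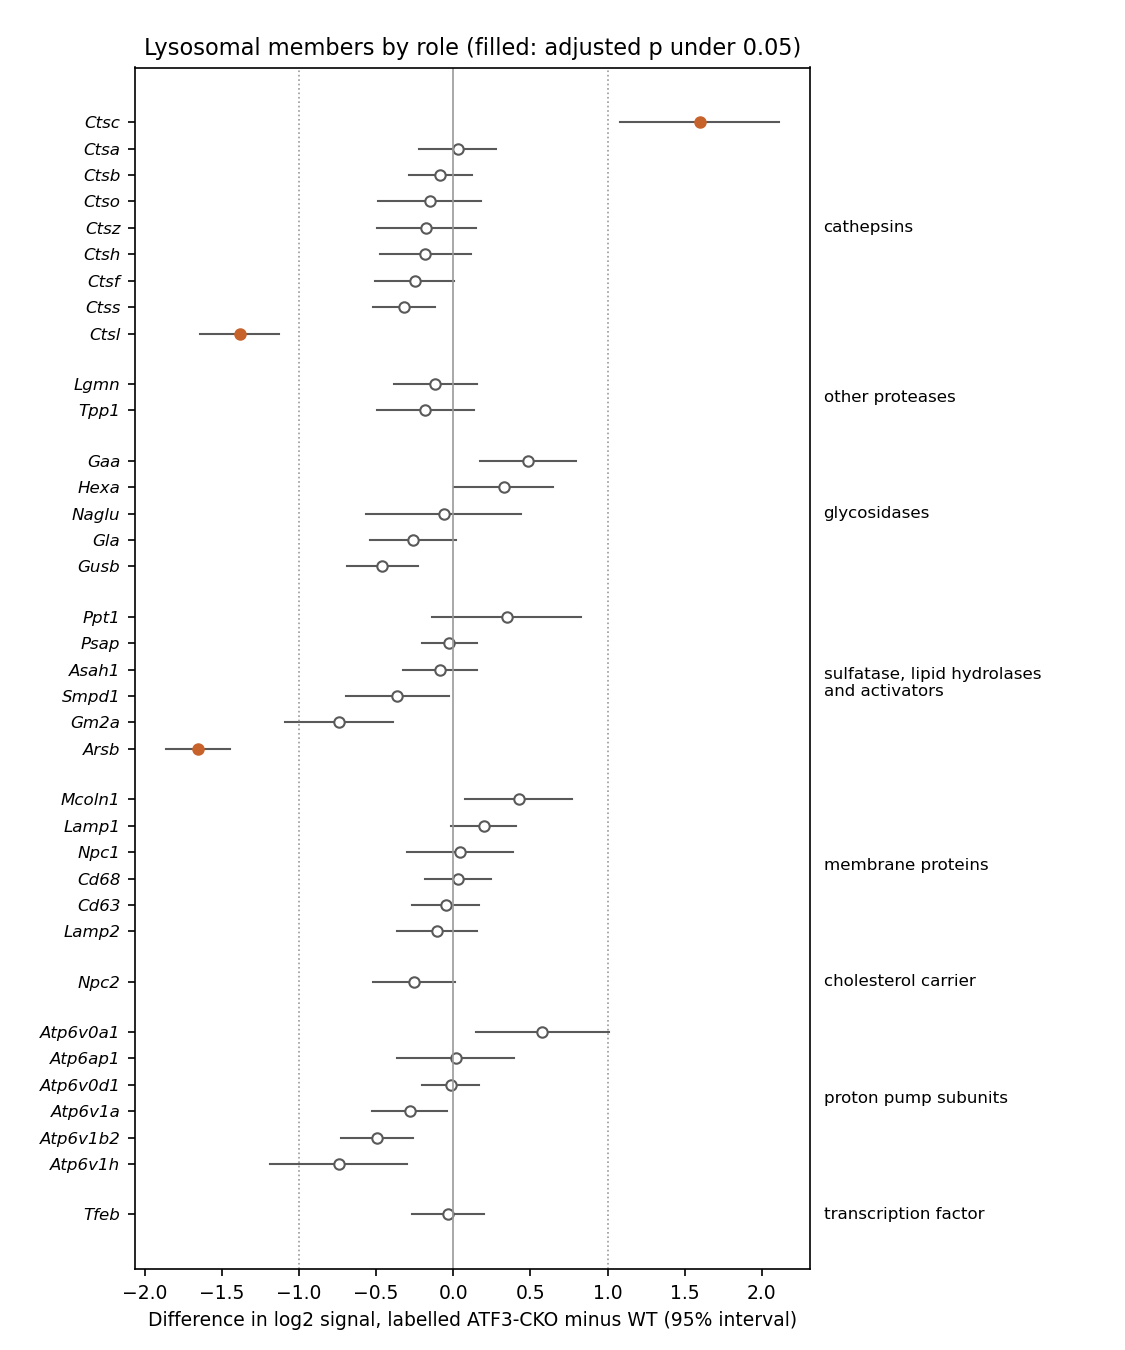
Difference in log2 signal between the arrays labelled ATF3-CKO and WT (x axis) for the 36 measured members (y axis), grouped by role, with the 95% interval from limma as a line and dotted lines at 2-fold. Filled points, Ctsc, Ctsl and Arsb, passed an adjusted p of 0.05, and the other 33 did not.

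The intervals bound what was not called. For 30 of the 36 members the 95% interval lay within 2-fold in either direction, and for 23 within 1.5-fold. These bounds, like the bands of signal below, were set after the values were seen. At an unadjusted p under 0.05, 5 of the 36 members were higher and 9 lower, beside the 13.7% and 14.5% among probe sets with 1 symbol above the median signal. The arrays of the groups did not overlap in 15 members (41.7%), 6 higher and 9 lower. Over all probe sets 24% did not overlap, 16.5% higher and 7.51% lower. Among probe sets with 1 symbol above the median signal, as all 36 members are, 16.1% were higher and apart and 16.6% lower and apart. The share that did not overlap rose with signal, from 15.5% below the median to 45.7% at a log2 signal of 16 and above. Without WT replicate 3 the count of lower members that did not overlap was 17, and without ATF3-CKO replicate 1 it was 16, with fewer arrays to overlap in each case. After quantile normalization 3 members were higher and apart, and after centring each array on the same median 2 were.

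Signal mattered for the reading of the medians too. The 14 members at 16 and above had a median difference of -0.14, whereas the 678 probe sets in that band had a median of 0.19 and 6.64% of them passed. Between 12 and 16 the 11 members had a median of -0.09 beside 0.14 over 2526 probe sets, of which 10.1% passed. Between 8 and 12 the 9 members had a median of -0.06 beside -0.03 over 7511 probe sets, of which 8.16% passed. The members as a whole had a median of -0.09, with 25 negative and 11 positive. Whether these medians differ from those of other bright genes was not tested.

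Members varied among the WT arrays more than among the others. The median SD of a member was 0.16 in WT and 0.11 under the ATF3-CKO label, and the WT SD was the larger in 23 of 36. Probe sets with 1 symbol above the median signal went the same way, with a median SD of 0.14 in WT and 0.12 under the ATF3-CKO label. Among those the WT SD was the larger in 9932 of 17333, so this is not particular to the members. WT replicate 3 was the lowest WT array in 28 of 36 members, with a median of -0.12 from the WT mean, and ATF3-CKO replicate 1 was the highest of its group in 22. In the other direction, WT replicate 3 was the highest WT array of Ctsh, Ctss, Gla, Cd63, Atp6v1a and Atp6v1h.

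**Figure D3:**
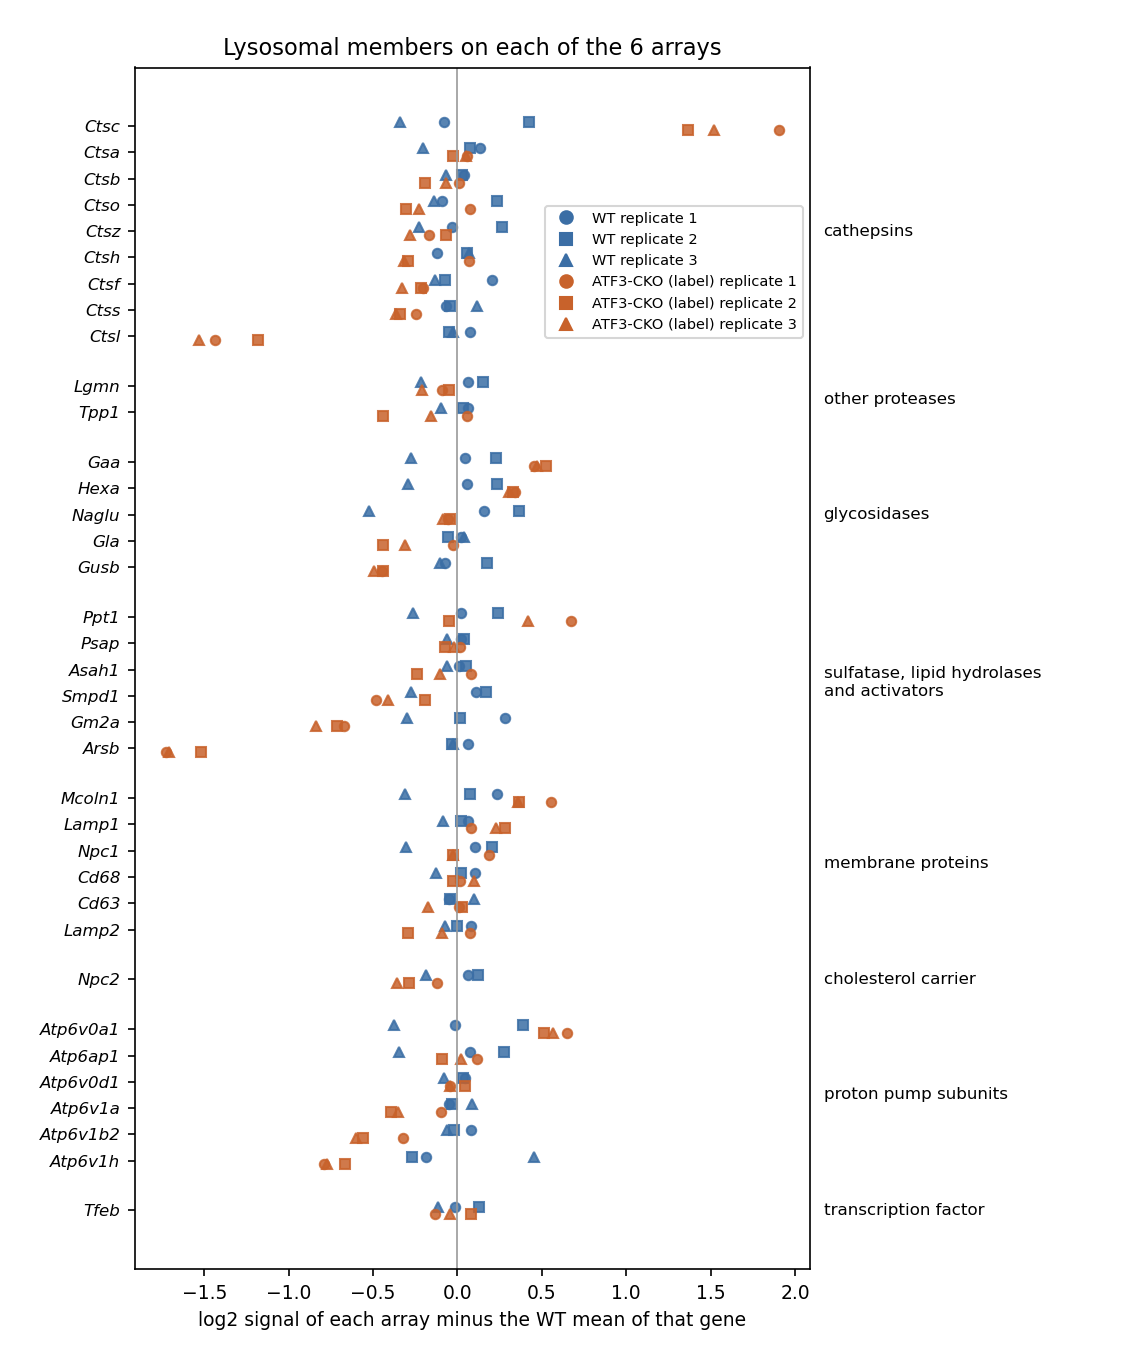
Log2 signal of each of the 6 arrays minus the WT mean of the gene (x axis) for the 36 measured members (y axis). The shape gives the replicate number, which is not known to pair samples across groups. Blue triangles, WT replicate 3, lie leftmost of the WT points in 28 of 36 members, and the 2 groups are separate in 15.

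Other genes of the pathway were read from 8 further lists of 122 genes, 115 of them measured. Of these 17 passed the test (14.8%), 4 higher and 13 lower, and the median difference of the 115 was -0.12. Over all probe sets 2.85% passed, 1.17% higher and 1.68% lower, and 6.5% of those with 1 symbol above the median signal. These shares also stand beside the counts of each list below. The lists were drawn up with earlier results of these data known, so the 14.8% is no independent evidence. Of the 17 calls 4, those of Ctsk, Hgsnat, Gabarapl1 and Ostm1, held under each of the 14 alternatives. A further 6 were lost only with an array left out, and 7, those of Ctse, Scpep1, Scarb2, Rraga, Sqstm1, Wipi1 and Cst3, also in another alternative. Leaving out 1 array ended from 4 calls (WT replicate 3) to 12 (WT replicate 1 or ATF3-CKO replicate 2), 5 without WT replicate 2, and 11 without either of the other ATF3-CKO arrays. With WT replicate 1 left out, 0 were higher and 5 lower. With ATF3-CKO replicate 1 or replicate 3 left out, 0 were higher and 6 lower, and with ATF3-CKO replicate 2 left out, 1 was higher and 4 lower. With array weights 32 were lower.

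The largest difference in a further protease was that of Ctsk, the collagen-degrading cathepsin K of osteoclasts. It read 11.53, 11.05 and 11.32 in WT and 8.59, 8.63 and 8.72 under the ATF3-CKO label. No array of one group came near the other, and the difference was -2.65 (SE 0.13, adjusted p = 2.73e-04), a 6.29-fold lower signal. Ctsk and Atp6v0d2 also stand in the list of 11 osteoclast markers, of which 8 had negative and 3 positive differences. Acp5, Mmp9 and Itgb3 passed too and were lower. Nfatc1 had a positive difference with the groups apart (0.16, adjusted p = 0.405). Tnfrsf11a was negative and apart (-0.48, adjusted p = 0.205), and Dcstamp overlapped (-0.24). Calcr, Ocstamp and Oscar, which define that cell type, had group means of 3.36 to 3.44. Acp5 was 8.50-fold lower, Itgb3 7.33-fold and Mmp9 5.89-fold. The summed signal of the list, 18.7 to 18.8 in WT and 18.4 to 18.5 on the other arrays, is almost that of Atp6v0d2 alone, and without this gene it was 12.49 to 12.99 in WT and 10.42 to 10.52 on the other arrays. The part of osteoclast-like cells in the result for Ctsk was not tested. Ctse, an aspartic protease of endosomes, was higher, from 5.13 to 5.57 in WT to 6.10 to 6.62 (difference 1.03, adjusted p = 0.0248), a call lost when WT replicate 1 or ATF3-CKO replicate 1 or 3 was left out (adjusted p up to 0.115), after median-centring (0.0639) and with the replicate number as a block (0.058). The carboxypeptidase Scpep1 was lower by a small margin (-0.43, adjusted p = 0.0483), a call lost whichever of the 6 arrays was left out (adjusted p up to 0.162). The granule proteases Ctsg and Ctsw read below the median of all probe sets in both groups.

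Among 22 further hydrolases measured, Pld4 alone passed. It encodes an endolysosomal exonuclease of the phospholipase D family and read 8.55, 9.47 and 8.24 in WT and 10.85, 10.47 and 10.51 under the ATF3-CKO label. The difference was 1.86 (SE 0.30, adjusted p = 0.0261), and the call was lost when WT replicate 1 or any of the 3 ATF3-CKO arrays was left out (adjusted p up to 0.107). The median over these hydrolases was 0.03, with 12 positive and 10 negative. Lipa, the acid lipase of cholesterol esters, overlapped with a difference of 0.03.

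Of 24 further membrane proteins 3 passed. Hgsnat, which acetylates heparan sulfate across the lysosomal membrane, read 15.32, 14.73 and 14.88 in WT and 13.57, 13.44 and 13.37 under the ATF3-CKO label. The groups were apart, with a difference of -1.52 (SE 0.16, adjusted p = 0.00479). Ostm1, the partner of the chloride transporter Clcn7, read 9.67, 9.45 and 9.53 in WT and 8.62, 8.64 and 8.54 under the ATF3-CKO label (difference -0.95, SE 0.09, adjusted p = 0.00316). Clcn7 itself overlapped (-0.51, adjusted p = 0.324). Scarb2, the receptor that brings glucocerebrosidase to the lysosome, was higher, from 12.07 to 12.30 in WT to 12.76 to 12.83 (difference 0.57, adjusted p = 0.0252), a call lost on leaving out the same arrays as for Pld4 (adjusted p up to 0.105), after quantile normalization (0.0677), with the replicate number as a block (0.0674) and with trend and robust settings (0.0653).

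**Figure D4:**
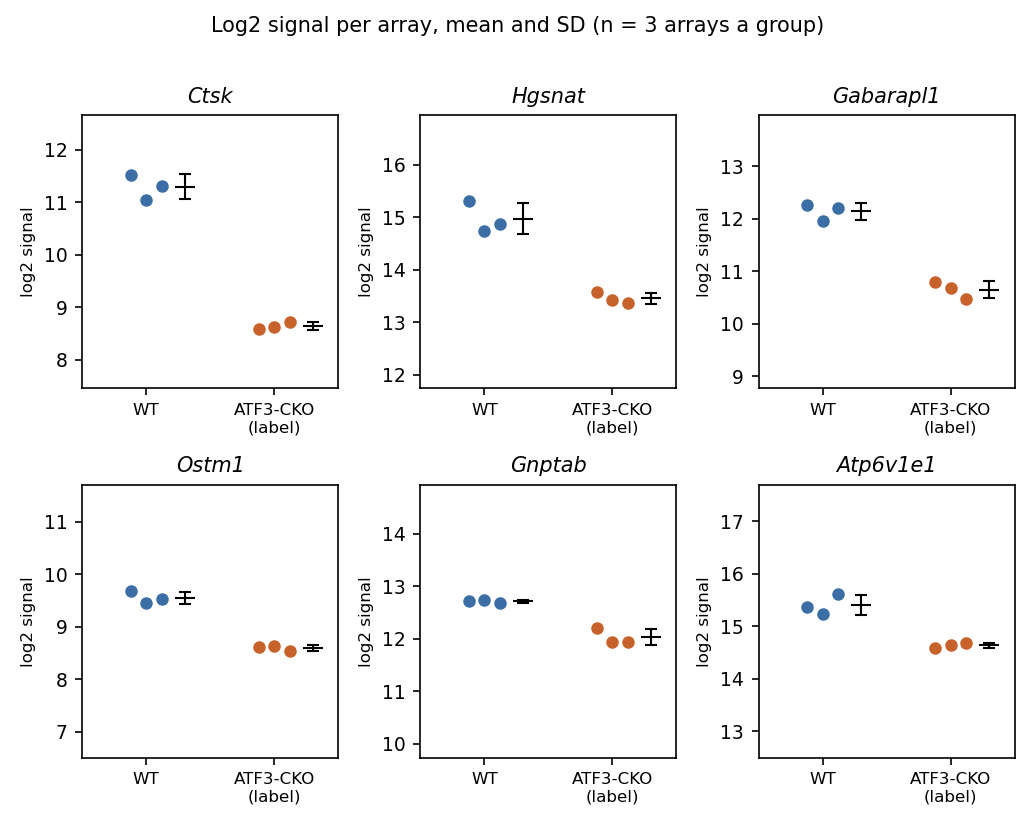
Log2 signal (y axis, the same span in each panel) of 6 related genes on the 3 WT arrays and the 3 arrays labelled ATF3-CKO, each point 1 array, with the mean and SD of the 3 beside them. The groups lie apart in each panel, with the widest gap in Ctsk.

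Of 16 further pump subunits Atp6v1e1 alone passed. This V1 stalk subunit read 15.37, 15.24 and 15.61 in WT and 14.57, 14.65 and 14.67 under the ATF3-CKO label, apart, with a difference of -0.77 (SE 0.11, adjusted p = 0.0168). The call was lost when WT replicate 1 or any of the 3 ATF3-CKO arrays was left out (adjusted p up to 0.0785). Joined with the members, 9 V1 subunits above the median signal had a median of -0.18, with 7 negative, and 7 V0 subunits a median of -0.15, with 6 negative. Atp6v0d2, the V0 subunit of osteoclasts and some macrophages, was apart but short of the threshold (-0.29, adjusted p = 0.154).

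Of 7 enzyme sorting genes measured, 6 had negative differences and 5 of these did not overlap, with a list median of -0.46, and 2 passed. Among probe sets with 1 symbol above the median signal 16.6% were lower and apart, against 7.51% of all, and 6.5% passed. With 7 genes chosen with results known, nothing is read from these counts about the list. Gnptab, the phosphotransferase that starts the mannose 6-phosphate tag, read 12.71, 12.74 and 12.68 in WT and 12.21, 11.94 and 11.93 under the ATF3-CKO label (difference -0.68, SE 0.10, adjusted p = 0.0168). Nagpa, which uncovers the tag, read 10.39, 9.48 and 9.91 in WT and 8.27, 8.63 and 8.41 under the ATF3-CKO label (difference -1.49, SE 0.22, adjusted p = 0.02). The call of Gnptab was lost on leaving out WT replicate 1 or ATF3-CKO replicate 2 or 3 (adjusted p up to 0.0874), and that of Nagpa on leaving out any of the 3 ATF3-CKO arrays (adjusted p up to 0.0986). The receptors that carry tagged enzymes were apart and short of the threshold, at -0.46 for M6pr (adjusted p = 0.109) and -0.62 for Igf2r (adjusted p = 0.0884). Gnptg, the other subunit of the phosphotransferase, was apart in the opposite direction (0.21, adjusted p = 0.384).

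The relatives of TFEB and the mTORC1 machinery on the lysosome had a median of 0.03 over 16 genes. Rraga, a GTPase that recruits mTORC1, passed alone (-0.40, adjusted p = 0.0485), and lost the call whichever of the 6 arrays was left out (adjusted p up to 0.166). Tfe3 (0.12) overlapped, and so did Mitf (0.59, adjusted p = 0.193) and Tfec (0.80, adjusted p = 0.296), with WT replicate 2 the highest WT array of each. Among 14 autophagy genes, 3 passed, beside 2.85% of all probe sets and 6.5% of those with 1 symbol above the median signal. Gabarapl1, an ATG8 protein of autophagosomes, read 12.26, 11.96 and 12.20 in WT and 10.80, 10.68 and 10.48 under the ATF3-CKO label (difference -1.49, SE 0.12, adjusted p = 0.00192). Its relatives Gabarap and Gabarapl2 differed by 0.06 and -0.38 and did not pass. Wipi1, which binds phosphoinositides on forming autophagosomes, was lower (-0.47, adjusted p = 0.0349), and the cargo receptor Sqstm1 was higher (0.39, adjusted p = 0.0443). The call of Wipi1 was lost on leaving out any array but WT replicate 3 (adjusted p up to 0.139). That of Sqstm1 was lost on leaving out any of the 6 (adjusted p up to 0.159), and quantile normalization brought its difference to 0.17 (adjusted p = 0.468).

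Cystatins are inhibitors of cathepsins. Of 8 measured, 3 were lower past the threshold and none higher, beside 1.68% lower over all probe sets. Cst3, the secreted cystatin C, read 16.05, 15.86 and 15.82 in WT and 14.95, 15.36 and 15.25 under the ATF3-CKO label (difference -0.72, SE 0.13, adjusted p = 0.0345). The call was lost whichever of the 6 arrays was left out (adjusted p up to 0.121). Cstb, the cytosolic cystatin B, overlapped with a difference of 0.03. The stefin A genes Stfa2l1 (-3.55, adjusted p = 0.021) and Stfa2 (-1.69, adjusted p = 0.0137) were lower. Both lost the call without WT replicate 1 or ATF3-CKO replicate 2, and Stfa2l1 also without ATF3-CKO replicate 1 (adjusted p up to 0.0924 for Stfa2l1 and 0.0712 for Stfa2). Their sequences are near-identical copies in a cluster, so a probe set may read more than one of them. Stefins A are abundant in neutrophils, whose summed marker signal moved the same way on these arrays, and their part in this result was not tested.

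**Figure D5:**
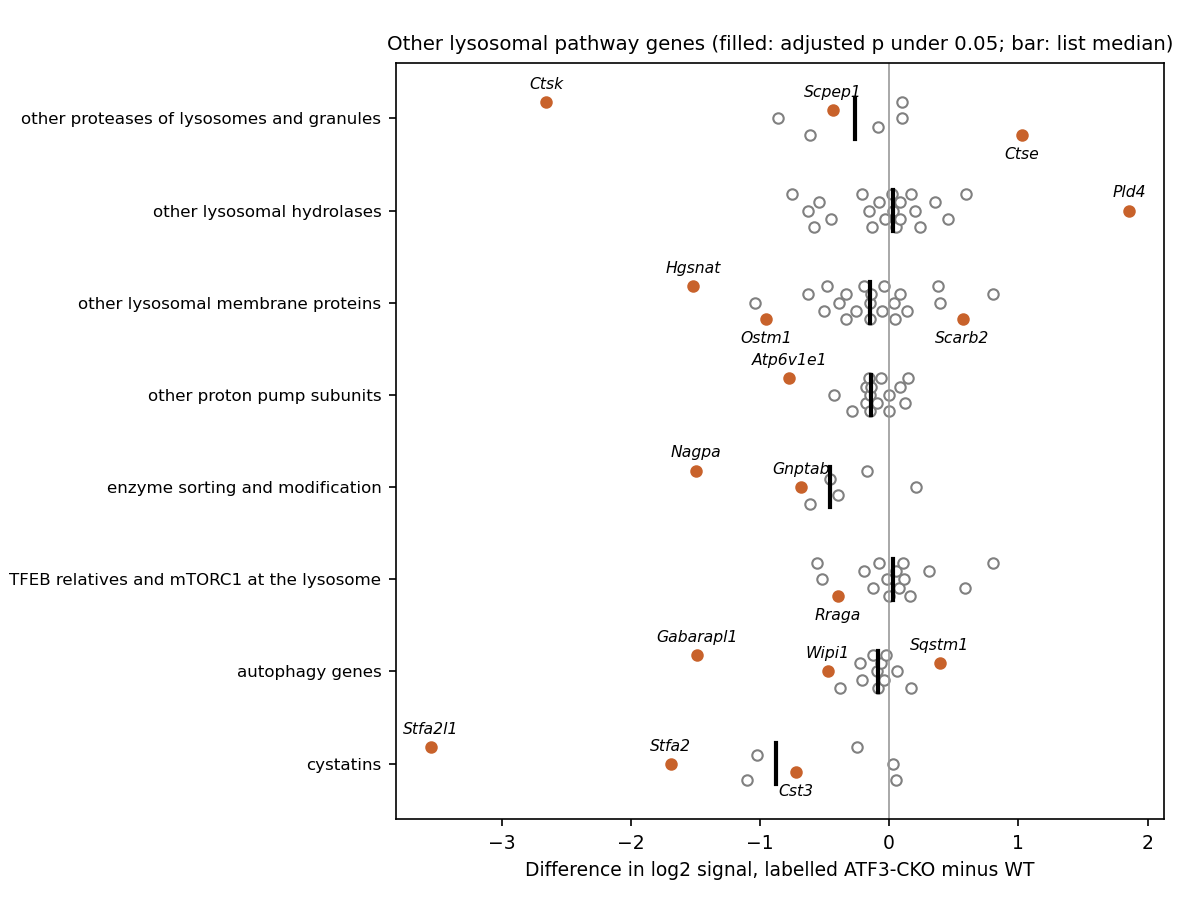
Difference in log2 signal between the arrays labelled ATF3-CKO and WT (x axis) for 115 further genes of the lysosomal pathway in 8 lists (y axis), each point 1 gene and each bar the median of a list. The 17 filled points passed an adjusted p of 0.05, 13 of them to the left of 0, and the lowest list medians are those of cystatins (-0.87) and of enzyme sorting (-0.46).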

How the data were processed

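Gene expression was measured on 6 Affymetrix arrays, Clariom D mouse per the labels, whereas the study's methods name Clariom S. The deposited values are log2 signals that the authors made from scanned intensities in Affymetrix Expression Console by RMA, the robust multichip average, with global scaling. The sources used here give no versions, genome build or annotation release. The table held 72688 probe sets with values between 1.59 and 19.93 and none missing. Of these 6732 were controls and 65956 were tested, among them 30646 annotated with 1 gene symbol, 2168 with several and 33142 with none. Array medians ranged from 4.22 to 4.42. Arrays correlated at 0.993 to 0.997 inside a group and at 0.988 to 0.992 across groups. Intensities carry no read depth, so precision is set by how many arrays there are. RMA summarises the probes of a set, so a change confined to one exon can be diluted.

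A linear model with group alone was fitted to each probe set in R 4.3.3 (limma 3.58.1, lmFit, eBayes), tests were two-sided, and the Benjamini-Hochberg adjustment ran over the 65956 probe sets with a threshold of 0.05. Every adjusted p given is that of limma. The study's definition of a changed gene, a fold of 2, was counted beside it. With 3 arrays a side an exact permutation test has a smallest p of 0.1 and was not used. The labels call the samples biological replicates without naming animals, and the study gives 3 mice a group. Motifs were searched in promoter windows with Python 3.11.15, and figures were drawn with matplotlib 3.10.9.

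The members and lists were chosen with earlier results of these data known. Named with array values are members past the threshold, Tfeb, in each role group of 3 or more the member of smallest p and that of largest mean signal, and, in the related lists, genes past the threshold. Other members and genes were given values after these were seen. Summed marker signals are the log2 of the sum of unlogged signals. The alternatives tried changed the normalization (quantile), the scaling (a common array median), the probe sets tested (by signal or symbol), the model (the replicate number as a block, trend and robust settings in eBayes, array weights), the arrays (each left out in turn) and the probe set of a gene (the mean of all).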

Additional observations from a re-analysis of the deposited data

How the results depend on the processing

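Ctsl and Arsb kept their call and direction under each alternative. The count of members called higher was 3 with array weights and 0 to 2 with 1 array left out, against 1. The count called lower was 4 among probe sets above the median signal, 5 among those with 1 symbol, 7 with array weights and 2 to 4 with 1 array left out, against 2. With the mean of a gene's probe sets 1 member was lower by 2-fold, since the dim probe set of Arsb then counts. Members higher and apart numbered 3 after quantile normalization and 2 after median-centring, against 6 and 6 to 7 with 1 array left out. Members lower and apart numbered 9 to 17 with 1 array left out. Related genes called higher numbered 2 after quantile normalization, 2 after median-centring, 2 with trend and robust settings and 0 to 3 with 1 array left out, against 4. Those called lower numbered 32 with array weights and 4 to 19 with 1 array left out, against 13. Quantile normalization moved the median difference to -0.30 in cathepsins, -0.10 in membrane proteins and -0.30 in pump subunits, and median-centring moved the last to -0.23. With 1 array left out the median differences ran from -0.27 to -0.07 in cathepsins (-0.0701 without WT replicate 2) and from -0.24 to 0.12 in glycosidases. The median of all probe sets was 0.06 as deposited, -0.01 after quantile normalization and -0.03 after median-centring. The cause of these shifts was not tested.

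The labels do not say whether the replicate numbers pair the samples, and they were not taken as pairs in the main fit. Deviations of same-numbered arrays from their group means correlated at 0.03, -0.09 and -0.07, and replicate 1 alone correlated best with its own number. With 3 arrays a group these values cannot decide whether the samples are paired. With the replicate number as a block 1 member was higher and 3 were lower, and 1 related gene was higher and 9 were lower.

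Only 3 arrays a group, labels that Atf3 went against, 2 members without a probe set of their own and signals near the top of the scale limit these results. Groups of 3 arrays were not tested for outlying samples.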
